A study of Mus musculus with 18 samples.

Results

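Glutathione transferases couple the tripeptide glutathione to reactive, mostly fat-loving compounds. The 10 genes followed here are Gsta4 and Gsta3 of the alpha class, Gstm1 and Gstm5 of the mu class, Gsto1 and Gsto2 of the omega class, Gstt1 of the theta class and the membrane-bound Mgst1, Mgst2 and Mgst3. They were chosen by name, with earlier results of these data known, as rows of the deposited array table that map to 1 of these symbols. Counts of members given below beside a share of all rows are therefore descriptions. Of the 10, 9 had a row of their own among the 23521 rows that name a single gene, out of 33793 rows in all. The only row for Gstm5 also names 4933431E20Rik, so no value is given for Gstm5.

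RNA came from epidermal sheets of shaved back skin of female mice on a mixed B6;129 background. The 6 groups of 3 arrays crossed 2 genotypes with 3 times. KO denotes AhR-/- mice of the line B6.129-AhRtm1Bra/J, a null line for the aryl hydrocarbon receptor (AhR), and WT denotes their AhR+/+ littermates. Skin was unstressed (0 h) or was taken 6 h or 24 h after 5 rounds of tape stripping, in which adhesive film lifts off the outer cornified layers. The study's design gives 3 littermates per genotype and time, so an array was taken as 1 mouse, and the age of the mice is not given in the labels. The study's protocol text also names conditional deletions of AhR, but the genotype label of these samples is AhR-/-, so they were taken to be the constitutive null. On that reading the comparison does not separate keratinocytes from the other cells of the sheet.

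Conjugation to glutathione makes electrophiles water soluble, after which export pumps remove them and peptidases trim them. The soluble classes share a fold and form dimers, whereas the microsomal members sit in membranes and belong to a separate protein family with the leukotriene C4 synthase. AhR is a ligand-activated transcription factor of keratinocytes known for inducing xenobiotic-metabolising enzymes, and several transferases are textbook targets of AhR or of NRF2, the regulator of the antioxidant response.

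The values, taken to be on a log2 scale, are differences around each row's own median over the 18 arrays. They are called centred values below and carry no absolute level. No transferase can therefore be called more abundant than another, and the presence of keratinocyte markers could not be checked. Array medians lay between -0.0187 and 0.0107, with SDs over all rows between 0.134 and 0.222. In whole sheets, fewer cells of a type and less RNA per cell cannot be told apart. Ahr differed by -1.11 at 6 h (KO minus WT, SE 0.143, limma adjusted p = 0.00549). The unstressed difference, -0.32 (adjusted p = 0.556), and the late one, -0.70 (adjusted p = 0.22), missed the threshold, an adjusted p under 0.05. Averaged over the 3 times the Ahr difference was -0.71 (adjusted p = 0.000939). Each sample also carries a 4-digit label number of unstated meaning: 7 arrays have a number below 3000 (KO at 0 h replicate 1, WT at 0 h replicates 2 and 3, KO at 6 h replicates 2 and 3, WT at 6 h replicates 2 and 3), and the other 11, with all arrays of 24 h, have one from 3000 up.

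RefSeq promoter windows on GRCm38.p6 (250 bases before to 50 after a start) were held for 9 of the 10 genes, all but Gsta4, in 12 windows. Both strands were searched for GCGTG, the core bound by AhR, and TGACNNNGC, the core of the antioxidant response element. GCGTG occurred in 4 of the 12 windows, from 3 members (Gstm1, Gstm5 and Mgst3), beside 32.4% of all 32851 windows of 300 bases. The windows of Gstm1 overlap and hold the same match. TGACNNNGC occurred in 3 of the 12 windows, from 3 members (Gsta3, Gstm5 and Mgst1), beside 12.4% of all windows. In Gstm5 a TGACNNNGC match, 42 bases before the start, overlapped a GCGTG match on the other strand. The 250 bases before the start are shown for the 4 members with a window and an unadjusted p under 0.05 in the comparison of 24 h with 0 h over both genotypes, described below, with matches in capitals. They lie at chr3:51660929-51661178 on the plus strand (Mgst2), chr1:167393842-167394091 on the minus strand (Mgst3), chr19:47854723-47854972 on the plus strand (Gsto1) and chr6:138140277-138140526 on the plus strand (Mgst1, the first of its 2 windows).
Mgst2: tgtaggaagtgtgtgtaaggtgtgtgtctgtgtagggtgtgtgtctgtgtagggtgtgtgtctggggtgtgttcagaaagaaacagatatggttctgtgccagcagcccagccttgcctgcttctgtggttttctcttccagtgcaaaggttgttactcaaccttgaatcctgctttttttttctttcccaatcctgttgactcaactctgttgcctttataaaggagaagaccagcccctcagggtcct
Mgst3: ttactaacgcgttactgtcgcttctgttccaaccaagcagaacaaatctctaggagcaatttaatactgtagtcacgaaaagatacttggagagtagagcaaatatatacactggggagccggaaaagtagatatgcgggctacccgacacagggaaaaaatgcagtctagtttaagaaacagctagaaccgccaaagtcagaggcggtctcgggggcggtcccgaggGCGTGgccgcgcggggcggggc
Gsto1: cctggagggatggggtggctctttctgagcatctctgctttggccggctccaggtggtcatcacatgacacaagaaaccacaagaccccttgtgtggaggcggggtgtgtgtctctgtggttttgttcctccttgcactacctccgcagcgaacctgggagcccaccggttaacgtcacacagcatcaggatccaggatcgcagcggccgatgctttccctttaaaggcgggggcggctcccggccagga
Mgst1: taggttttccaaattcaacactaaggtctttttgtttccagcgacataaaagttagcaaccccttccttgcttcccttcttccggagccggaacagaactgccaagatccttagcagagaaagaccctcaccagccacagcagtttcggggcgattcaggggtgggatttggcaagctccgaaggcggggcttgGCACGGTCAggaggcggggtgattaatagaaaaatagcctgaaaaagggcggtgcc
The capitals mark GCGTG, 22 bases before the start, in Mgst3 and the minus-strand match to TGACNNNGC, 56 bases before the start, in Mgst1. Mgst2, the only one of these 4 that passed in a comparison below, and Gsto1 held neither word in this window. A match is a string of letters and was not tested as a site.

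Among the 9 measured transferases Gsta4 varied most and was the only one that passed in a comparison between genotypes. Gsta4 conjugates reactive aldehydes left by lipid peroxidation. Its centred value spanned 4.81 over the 18 arrays, against 0.312 (Gsto2) to 1.13 (Gsto1) for the other 8 members. Its SD over arrays, 1.57, was at percentile 99.98 of all tested rows, whereas that of Gsto2, 0.0866, was at percentile 26.2.

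In unstressed epidermis the 3 KO arrays read -1.0, -1.32 and -1.14 for Gsta4 and the 3 WT arrays -0.87, -0.25 and 0.24. All KO arrays thus lay below all WT arrays, narrowly for the lowest WT array. The difference of -0.86 (SE 0.527, 95% interval -1.99 to 0.26, limma adjusted p = 0.747) did not pass. At 6 h the KO arrays read 2.76, 0.85 and 1.96 and the WT arrays -0.24, -1.12 and -1.05. The order of the genotypes was now the opposite, with no overlap. Gsta4 was 6.32-fold higher in KO at 6 h, a log2 difference of 2.66 (SE 0.527, 95% interval 1.53 to 3.79, adjusted p = 0.0231). At 24 h the KO arrays read 3.49, 1.91 and 2.86 and the WT arrays -0.64, 0.25 and 1.30. The groups again did not overlap, and the difference of 2.45 (95% interval 1.33 to 3.58, unadjusted p = 0.000324) was near the 6 h one in size but did not pass over all rows (adjusted p = 0.263).

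The mean centred values of Gsta4 ordered the groups as KO at 0 h (-1.15 ± 0.16, SD, n = 3), WT at 6 h (-0.80 ± 0.49), WT at 0 h (-0.29 ± 0.56), WT at 24 h (0.30 ± 0.97), KO at 6 h (1.86 ± 0.96) and KO at 24 h (2.76 ± 0.79). The arrays of each pair of neighbours in that order overlapped.

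**Figure D1:**
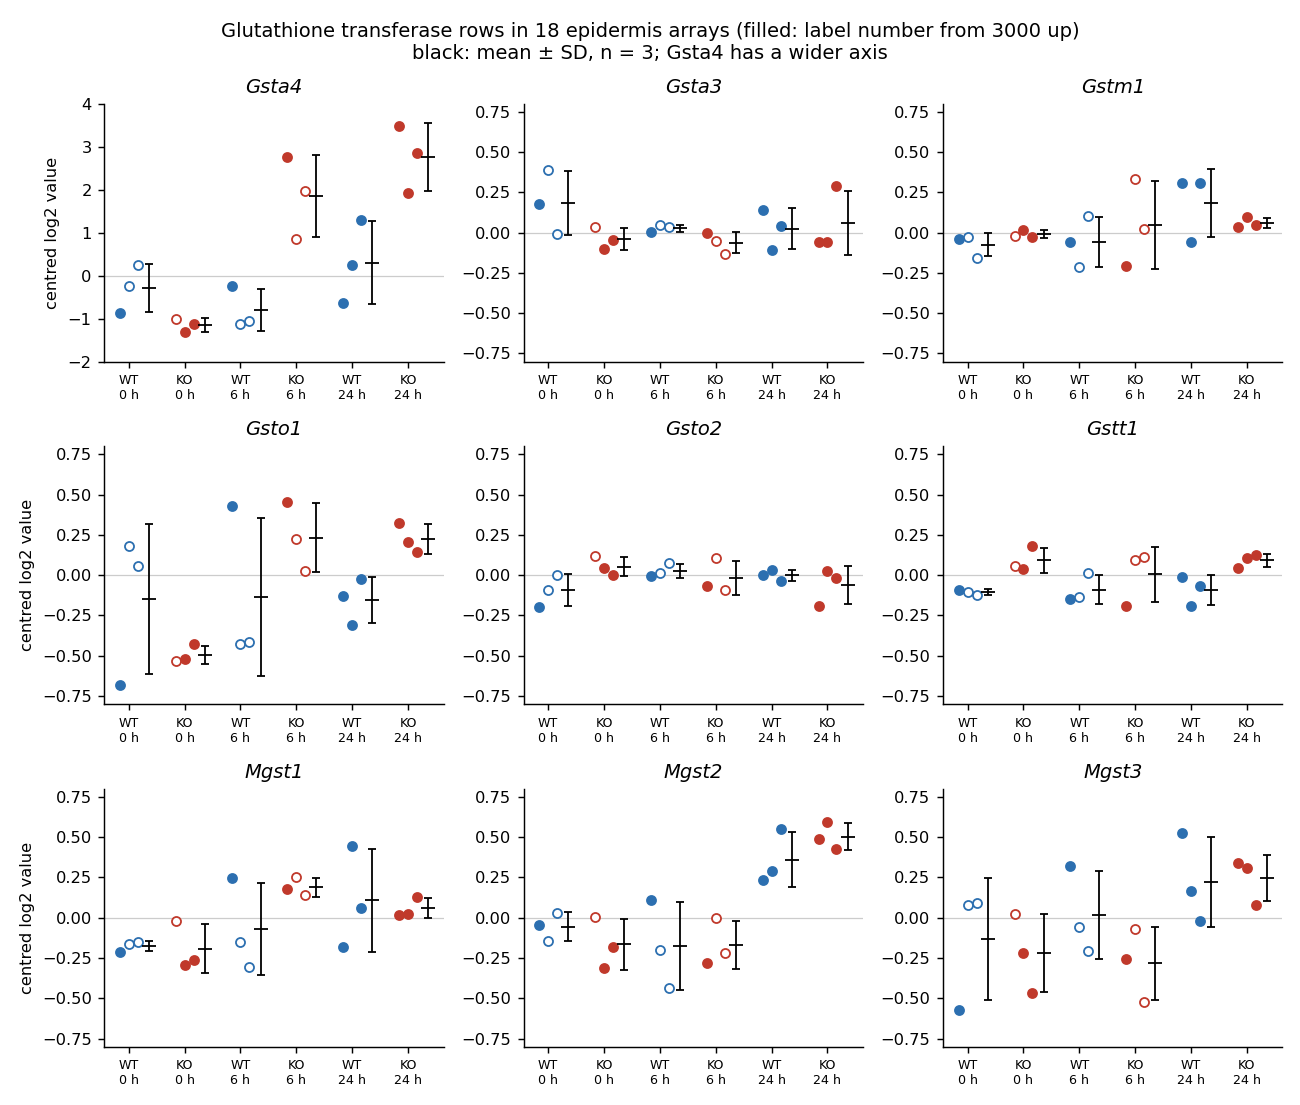
Centred log2 value of each measured glutathione transferase (y axis, each row's median over 18 arrays at 0) on every array, by genotype and hours after stripping (x axis). Points are arrays, filled where the label number is 3000 or more, and bars are the mean and SD of 3 arrays. The Gsta4 panel spans 4.81 and its KO arrays at 6 h and 24 h lie above all WT arrays of the same time.

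Among the transferases Gsta4 alone passed in the KO-WT comparison at 6 h, so 1 of 9 members was higher and 0 lower, where 0.366% of all tested rows passed as higher and 2.18% in either direction. The median KO-WT difference of the 9 members was 0.10 at 6 h and that of all rows 0.01. At 0 h no member passed in limma (2 of 9 had an unadjusted p under 0.05), where 0.0978% of all rows passed and 8.48% had an unadjusted p under 0.05. At 24 h no member passed either (2 of 9 at an unadjusted p under 0.05), beside 0.017% and 6.71% of all rows. Averaged over the 3 times again none passed, 2 of 9 had an unadjusted p under 0.05, and the shares of all rows were 0.374% and 12.3%. Gsta4 came nearest there, with 1.42 (SE 0.304, adjusted p = 0.0601).

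The 6 h call of Gsta4 between genotypes depends on the arrays used: it was lost without KO replicate 3 (adjusted p = 0.0934), WT replicate 2 (0.0944) or WT replicate 3 (0.11), with differences of 2.21 to 3.16 over the 6 omissions. Among arrays with label numbers below 3000 the difference was 2.49 (adjusted p = 0.0179), and among those from 3000 up, with 1 array a genotype at 6 h, it was 3.0 (adjusted p = 0.596).

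Within KO mice, Gsta4 rose after stripping at both times. Against 0 h it was 8.06-fold higher at 6 h (log2 difference 3.01, 95% interval 1.89 to 4.14, limma adjusted p = 0.0112) and 15-fold higher at 24 h (3.91, 95% interval 2.78 to 5.03, adjusted p = 0.0015). All 3 stripped arrays at either time lay above all 3 unstressed KO arrays. The 2 comparisons share the KO arrays of 0 h. In WT mice the differences were -0.51 at 6 h (95% interval -1.64 to 0.61, adjusted p = 1) and 0.59 at 24 h (95% interval -0.53 to 1.72, adjusted p = 0.711), and arrays of stripped and unstressed skin overlapped at both times.

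The difference between the genotypes' 6 h responses was itself tested for Gsta4 and was 3.52 (SE 0.746, 95% interval 1.93 to 5.11, adjusted p = 0.047). This call was near the threshold: it held in 3 of the 12 omissions of a single array, those of KO at 6 h replicate 2 (adjusted p = 0.0424), WT at 0 h replicate 1 (0.0228) and WT at 6 h replicate 1 (0.0307), and in the other 9 the adjusted p reached 0.137, while the estimate stayed between 3.07 and 4.03. At 24 h the difference of responses was 3.32 (95% interval 1.72 to 4.91) and did not pass (adjusted p = 0.225). Of the 9 members 1 passed in the 6 h difference of responses, where 0.234% of all rows passed as higher and 0.731% in either direction. In the 24 h difference of responses 0 members and 0% of all rows passed in limma, with 2 of 9 members and 9.2% of all rows at an unadjusted p under 0.05.

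**Figure D2:**
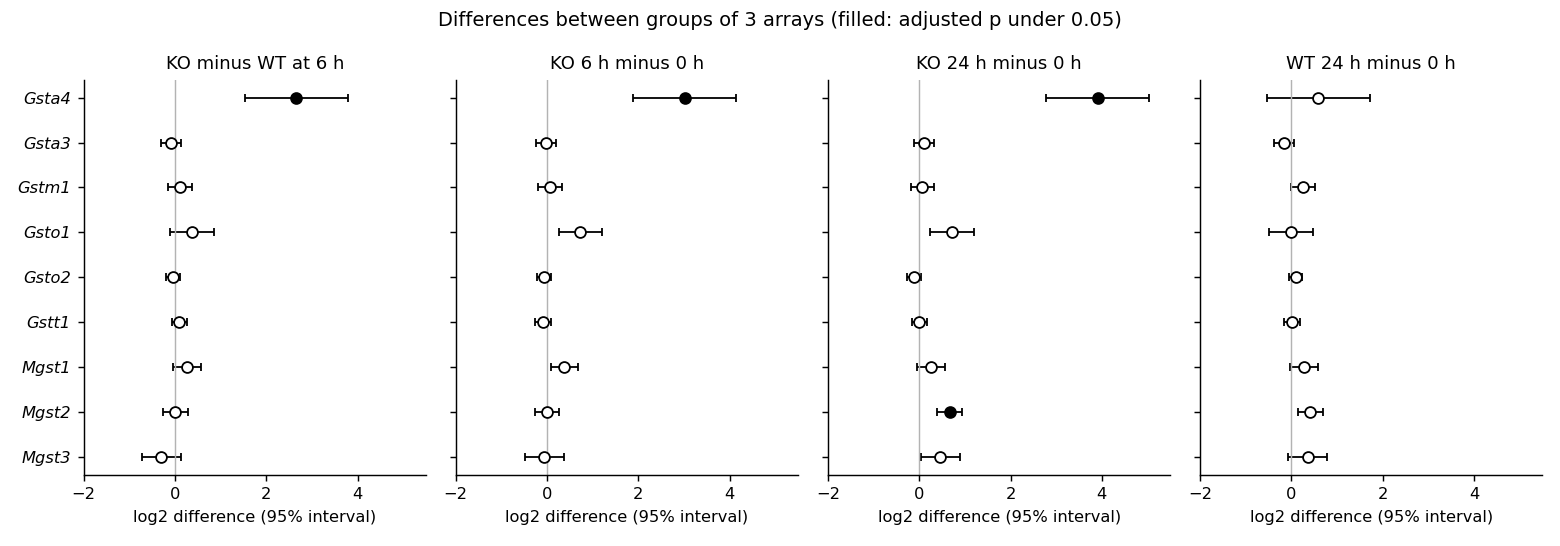
Log2 differences of the 9 measured transferases (y axis, genes) with 95% intervals (x axis) in 4 comparisons: KO against WT at 6 h, and 6 h or 24 h against 0 h in KO and 24 h against 0 h in WT. Filled points passed at an adjusted p under 0.05. Gsta4 is filled in the 3 panels that use stripped KO arrays, at 2.66, 3.01 and 3.91, and Mgst2 is filled at 24 h in KO, at 0.67.

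In WT skin Gsta4 differed by label number within a time. At 0 h the WT array from 3000 up read -0.87 and the 2 below averaged -0.01, while at 6 h the array from 3000 up read -0.24 and the 2 below averaged -1.08. The WT difference of 6 h from 0 h was accordingly -1.08 below 3000 and 0.62 from 3000 up, so its direction turned with the number. Gsto1 (-0.54 and 1.11) and Mgst3 (-0.22 and 0.89) turned in the same comparison. So did Mgst1 and Mgst2. Gstm1 and Gstt1 also turned, but the opposite way, and Gsta3 and Gsto2 kept their direction. From 3000 up each of these WT groups holds 1 array, and how many of all rows turn was not counted. The part of the label number in these values was not tested. In KO the Gsta4 difference of 24 h from 0 h, restricted to numbers from 3000 up, was 3.98 (adjusted p = 0.00764), near the value over all arrays.

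Markers of wounded keratinocytes (Krt6a, Krt6b, Krt16, Krt17 and Sprr1b, 5 of 5 measured) moved with Gsta4. In KO their mean centred value ran from -1.80 to -1.42 in unstressed skin, from 0.17 to 1.81 at 6 h and from 1.31 to 2.00 at 24 h. The matching WT ranges were -1.23 to 0.29, -1.17 to -0.30 and -0.51 to 0.95. Of the 5, 4 passed as higher at 6 h and at 24 h than at 0 h in KO, beside 1.57% and 3.09% of all rows. Neutrophil and monocyte markers (6 genes) averaged -0.13 to 0.03 in KO at 0 h, 0.00 to 0.80 at 6 h and 0.21 to 0.55 at 24 h, and lay between -0.20 and 0.03 on every WT array. Epidermal T cell markers (4 genes) averaged -1.52 to -0.40 on the KO arrays and 0.22 to 1.15 on the WT arrays, and 2, 3 and 1 of the 4 passed as lower in KO at 0, 6 and 24 h, where 0.0978%, 2.18% and 0.017% of all rows passed in either direction. Suprabasal keratinocyte markers (6 genes) averaged -0.56 to -0.19 on the KO arrays of 6 h and -0.11 to 0.34 on the WT arrays. All 6 had a KO-WT difference below 0 at 6 h (median -0.45), 0 passed in limma, and 6 had an unadjusted p under 0.05, as had 15.8% of all rows. The genotypes also lay apart at 0 h (KO -0.158 to 0.116, WT 0.123 to 0.257) and 24 h (KO -0.44 to -0.11, WT 0.018 to 0.071). At 0 h 1 of the 6 passed as lower in KO, beside 0.0978% of all rows. In KO at 24 h against 0 h, 2 passed as lower and 1 as higher, beside 9.56% of all rows in either direction. Langerhans cell markers (4 genes) averaged -0.66 to -0.023 in KO at 0 h and 0.054 to 0.23 in KO at 6 h. All 4 were above 0 in that comparison (median 0.49), 0 passed, and 4 had an unadjusted p under 0.05, as had 20.7% of all rows. Hair follicle (highest in WT at 24 h, up to 1.33), melanocyte (highest in WT at 0 h, up to 1.01), sebaceous and basal keratinocyte lists overlapped between genotypes at 24 h. The basal list lay apart at 6 h (KO -0.14 to 0.02, WT 0.06 to 0.11). There 1 of its 5 genes passed as lower in KO, beside 2.18% of all rows in either direction. The sebaceous list lay apart at 0 h (KO -0.50 to -0.04, WT 0.01 to 0.26). Skeletal muscle, adipocyte, fibroblast and endothelial lists stayed between -0.13 and 0.23 on all arrays. The part of these cell types in the Gsta4 values was not tested.

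The other alpha-class member, Gsta3, which detoxifies epoxides such as that of aflatoxin, did not follow Gsta4. Its centred value spanned 0.522 over the 18 arrays. In WT at 0 h it read 0.18, 0.39 and -0.011, and in KO at 0 h 0.033, -0.10 and -0.049, so the groups overlapped. The difference of -0.22 (SE 0.103, unadjusted p = 0.0466) did not pass (adjusted p = 0.58). At 6 h the genotypes did not overlap (KO -0.13 to -0.0034, WT 0.0034 to 0.045). That difference, -0.09, did not pass either (limma adjusted p = 0.755). How many of all rows lack overlap between such groups was not counted. In KO, Gsta3 at 24 h differed from 0 h by 0.10 (95% interval -0.12 to 0.32), an interval that lies wholly below that of Gsta4.

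In the mu class, Gstm1 spanned 0.548 and gave no call in any of the 12 comparisons. The WT arrays at 24 h read 0.31, -0.059 and 0.31 and the KO arrays 0.037, 0.095 and 0.048. In WT the difference of 24 h from 0 h, 0.26 (SE 0.122, unadjusted p = 0.0512, adjusted p = 0.401), exceeded that in KO, 0.07, but the difference between these responses, -0.19 (95% interval -0.56 to 0.18), did not pass. Gstm1 lies between Gstm2 and Gstm4 in a cluster of closely related genes, and what its probes read of those copies is not known here.

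The omega-class enzymes use a cysteine at the active site and reduce dehydroascorbate. Gsto1 came closest to Gsta4 in pattern, though with small differences. Unstressed KO arrays read -0.53, -0.52 and -0.43 for Gsto1, the 6 h arrays 0.45, 0.22 and 0.025, and the 24 h arrays 0.33, 0.20 and 0.14. Every stripped KO array thus lay above every unstressed one. Unstressed WT arrays read -0.68, 0.18 and 0.055, the 6 h arrays 0.43, -0.42 and -0.42, and the 24 h arrays -0.13, -0.31 and -0.025, with overlap between all times. The KO differences from 0 h, 0.73 at 6 h (SE 0.223, adjusted p = 0.0732) and 0.72 at 24 h (adjusted p = 0.0566), fell short of the threshold. Restricted to label numbers from 3000 up, the 24 h difference was 0.70 (2 arrays at 0 h, 3 at 24 h, adjusted p = 0.0068). The 6 h difference there, 0.93 (adjusted p = 0.0153), rests on 1 array at 6 h, assumed to vary like the other groups, and among numbers below 3000, with 1 array at 0 h, no member passed. At 24 h all KO arrays lay above all WT arrays, with a difference of 0.38 that did not pass (adjusted p = 0.809).

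Gsto2, the neighbour of Gsto1 on the chromosome, varied least of the members, with a span of 0.312. Its largest difference in size was in the 24 h responses between genotypes, -0.21 (95% interval -0.42 to 0.00, adjusted p = 0.555). Gstt1, a theta-class enzyme that acts on small halogenated compounds, was the only member other than Gsta4 with an unadjusted p under 0.05 for KO against WT averaged over the 3 times. Its KO arrays read 0.060, 0.038 and 0.18 at 0 h and its WT arrays -0.089, -0.10 and -0.13. At 24 h the KO arrays read 0.044, 0.11 and 0.13 and the WT arrays -0.014, -0.19 and -0.067. The genotypes did not overlap at 0 h or 24 h and overlapped at 6 h. The averaged difference was small, 0.16 (SE 0.045, unadjusted p = 0.00309), and did not pass (adjusted p = 0.149) except without KO at 6 h replicate 1 (adjusted p = 0.0247).

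The microsomal members are small membrane proteins: Mgst1 is abundant in the endoplasmic reticulum and outer mitochondrial membrane and also reduces lipid peroxides, and Mgst2 and Mgst3 can in addition make leukotriene C4 or reduce peroxides. Mgst2 was the second transferase to rise, and only at the late time. Unstressed KO arrays read 0.0023, -0.31 and -0.18 for Mgst2, the 6 h arrays -0.28, -0.0023 and -0.22, and the 24 h arrays 0.49, 0.59 and 0.42. The 24 h arrays lay above all others of the genotype, while 0 h and 6 h overlapped. In WT the unstressed arrays read -0.045, -0.15 and 0.029, the 6 h arrays 0.11, -0.20 and -0.43, and the 24 h arrays 0.24, 0.29 and 0.55, again with all 24 h arrays on top. Mgst2 was 1.59-fold higher at 24 h than at 0 h in KO (log2 difference 0.67, SE 0.126, 95% interval 0.40 to 0.94, limma adjusted p = 0.00556). In WT the difference of 0.42 (95% interval 0.15 to 0.69) did not pass (adjusted p = 0.175). The genotypes' 24 h responses differed by 0.25 (SE 0.179, 95% interval -0.13 to 0.63, adjusted p = 0.75), and over both genotypes Mgst2 rose by 0.54 (SE 0.0894, adjusted p = 0.00214).

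For Mgst3 the unstressed KO arrays read 0.022, -0.22 and -0.46, the 6 h arrays -0.26, -0.07 and -0.52, and the 24 h arrays 0.34, 0.31 and 0.08. As for Mgst2, all KO arrays of 24 h lay above those of 0 h and 6 h. The difference of 0.46 (SE 0.199) did not pass (adjusted p = 0.173), nor did that over both genotypes, 0.41 (adjusted p = 0.0774). Its WT arrays read -0.57, 0.081 and 0.089 at 0 h and 0.52, 0.17 and -0.022 at 24 h and overlapped. For Mgst1 the unstressed KO arrays read -0.019, -0.29 and -0.26, the 6 h arrays 0.18, 0.25 and 0.14, and the 24 h arrays 0.019, 0.026 and 0.13. The 3 times did not overlap in KO, with the 6 h arrays highest, while the WT arrays overlapped between all times. Neither the 6 h difference, 0.38 (SE 0.143, adjusted p = 0.139), nor that at 24 h, 0.25 (adjusted p = 0.329), passed.

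Counted over members, 1 of 9 rose in KO at 6 h, where 1.57% of all rows passed as higher and 4.98% in either direction. At 24 h in KO 2 of 9 rose, where 3.09% passed as higher and 9.56% in either direction. In WT 0 of 9 passed in limma at 6 h (0 at an unadjusted p under 0.05), beside 0% of all rows (4.62% unadjusted), and 0 of 9 at 24 h (1 unadjusted), beside 0.0298% of all rows (12.5% unadjusted). Averaged over both genotypes 2 of 9 passed as higher at 24 h, where 3.48% of all rows passed as higher and 10.8% in either direction. They were Gsta4, by 2.25 (SE 0.373, limma adjusted p = 0.00218), and Mgst2. The Gsta4 average joins a difference of 3.91 in KO with 0.59 in WT, and the Mgst2 average joins 0.67 with 0.42. Neither WT difference passed. At 6 h over both genotypes 0 of 9 members and 0% of all rows passed, with 3 of 9 members and 14.2% of all rows at an unadjusted p under 0.05. The members' median difference of 24 h from 0 h was 0.25 in KO and 0.26 in WT, against 0.02 and 0.01 for all rows.

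The members did not vary as 1 block over the 18 arrays. The 36 pairs of members had Pearson r from -0.40 (Gsta4 with Gsto2) to 0.74 (Gsta4 with Gsto1), with a median of 0.11. For Gsta4 and Gsto1, Spearman's rho was 0.75, and r was 0.50 once group means were removed. Mgst2 and Mgst3 had r = 0.64 (0.32 with group means removed), and Gsta4 and Mgst1 r = 0.55 (0.30). These are descriptions over arrays that share groups and label numbers.

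The 5 named genes whose centred values were most like those of Gsta4 over the 18 arrays, by Pearson r, were Klk6 (0.971), an epidermal serine protease, Krt6b (0.962), a keratin of wounded and thickened epidermis, Stfa1 (0.961), a cysteine protease inhibitor, Glrx (0.952), which removes glutathione from protein thiols, and Uck2 (0.949), a pyrimidine salvage kinase. Without the 2 arrays farthest from the Gsta4 median, KO at 24 h replicates 1 and 3, r was 0.941 to 0.957. Within the 7 arrays of low label number r was 0.911 to 0.965, and within the other 11 it was 0.958 to 0.985. Each of the 5 rose in KO at 24 h, from 0.75 for Uck2 (adjusted p = 0.00281) to 5.34 for Krt6b (adjusted p = 0.00204), and at 6 h, from 0.65 (adjusted p = 0.0126) to 3.73 (adjusted p = 0.0183) for the same genes. None of the 5 passed in WT at either time. They were picked for likeness to Gsta4, so these values describe them and add no support.

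**Figure D3:**
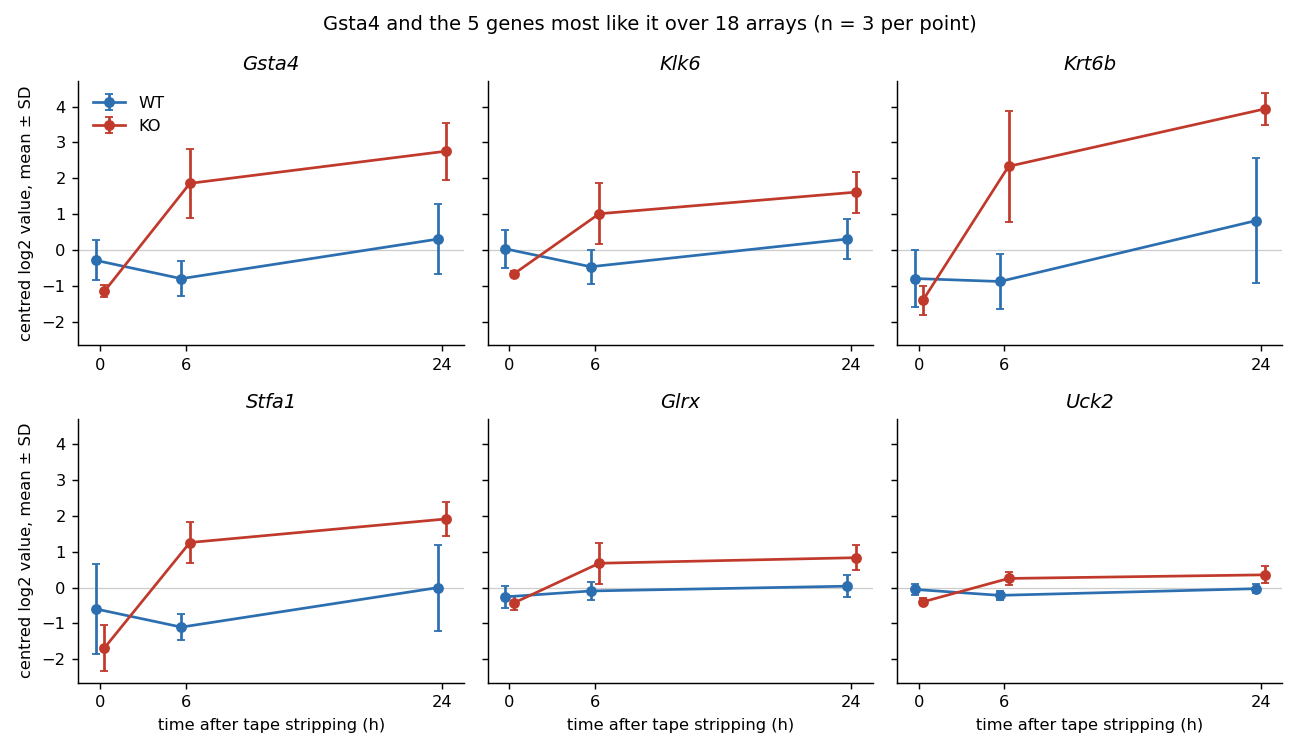
Mean centred log2 value (y axis) at 0, 6 and 24 h after stripping (x axis) of Gsta4 and the 5 genes with the highest Pearson r to it, in KO and WT, with SD bars over 3 arrays. In all 6 panels the KO mean is lowest at 0 h and highest at 24 h, from -1.15 to 2.76 for Gsta4, and WT means at 24 h stay at or below 0.82.

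Other transferases and relatives were measured for 18 of 21 listed genes and changed in few cases. Ltc4s, the leukotriene C4 synthase, was lower in KO than WT at 6 h (-0.45, adjusted p = 0.0143) and averaged over times (-0.38, adjusted p = 0.000939). Gstk1, the mitochondrial and peroxisomal kappa-class enzyme, fell by 0.61 in KO at 6 h (adjusted p = 0.0248). At 24 h in KO, 2 of 18 rose, Gstm6 (0.24, adjusted p = 0.0425) and Gstp3 (0.50, adjusted p = 0.031), and 0 fell, beside 3.09% of all rows higher and 9.56% in either direction. Over both genotypes at 24 h, Gstm2 rose (0.36, adjusted p = 0.046) and Hpgds, the sigma-class prostaglandin D synthase, fell by 0.55 (adjusted p = 0.0058). The mu and pi genes have close copies, so these rows may read more than 1 gene.

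Genes of glutathione synthesis and supply (21 of 23 measured) included 3 that rose in KO at 24 h and 0 that fell, beside the same 3.09% and 9.56% of all rows: Gclm, the modifier subunit of the rate-limiting ligase (0.32, adjusted p = 0.0216), Gsr, which regenerates glutathione from its disulfide (0.43, adjusted p = 0.0225), and Pgd, which supplies NADPH (0.51, adjusted p = 0.0212). Chac1, which degrades glutathione, rose in KO at 6 h (0.35, adjusted p = 0.0439). Gss, the glutathione synthetase, was lower in KO than WT at 6 h (-0.36, adjusted p = 0.025). Dpep2, a dipeptidase that trims cysteinyl conjugates, was lower in KO at 0 h (-0.89, adjusted p = 0.0372).

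Among genes of glutathione use and conjugate export (19 of 22 measured), 2 rose and 1 fell in KO at 24 h, again beside 3.09% of all rows higher and 9.56% in either direction. Glrx (1.26, adjusted p = 0.00801) and the peroxidase Gpx1 (0.45, adjusted p = 0.0158) rose, and Abcc5, an export pump of organic anions, fell by 0.57 (adjusted p = 0.00684). Abcc5 also fell by 0.70 in KO at 6 h (adjusted p = 0.00852), and its 6 h response differed between genotypes by -0.85 (adjusted p = 0.0345). The medians of the 3 lists in KO at 24 h were 0.09, 0.08 and 0.17, beside 0.02 for all rows. In WT at 24 h 0 genes of the 3 lists passed in limma (4, 2 and 2 at an unadjusted p under 0.05), with medians of 0.02, -0.02 and 0.05. Few rows of any kind passed there: 0.0298% of all rows, with 12.5% at an unadjusted p under 0.05.

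**Figure D4:**
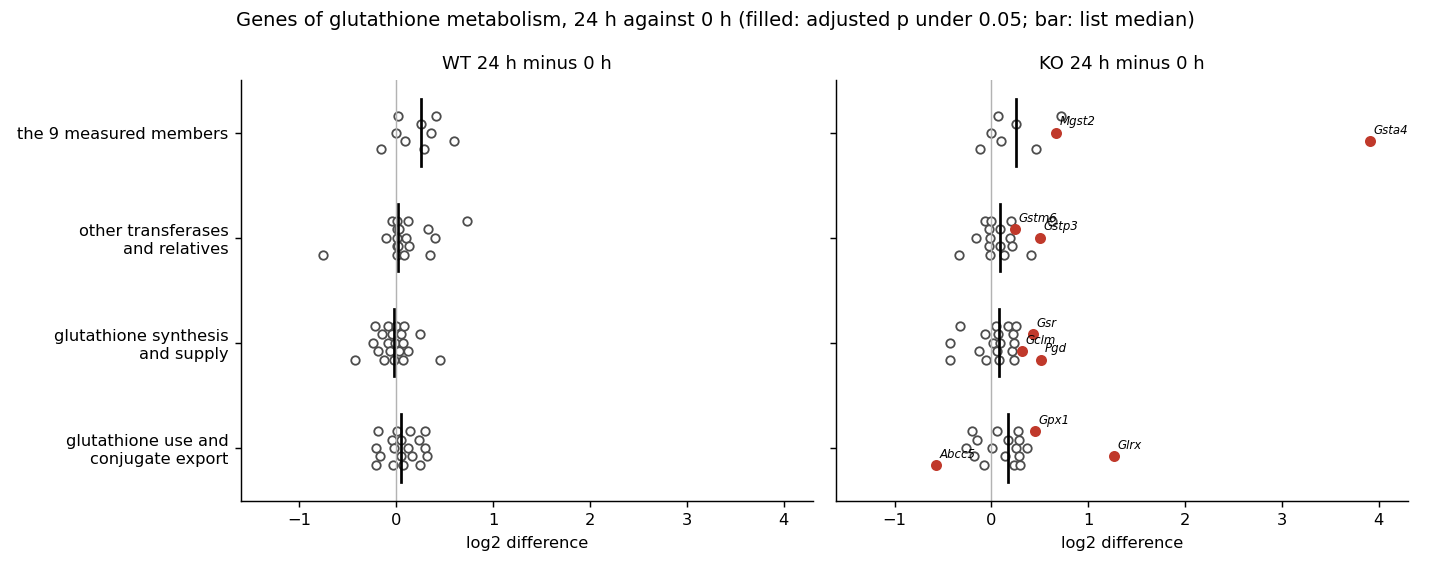
Log2 difference of 24 h from 0 h (x axis) of each gene in the 9 measured members and in 3 lists of other glutathione genes (y axis), for WT and KO. Points are genes, filled and named where the adjusted p was under 0.05, and bars are list medians. In KO, where 9.56% of all rows passed, 2 members and 8 genes of the lists are filled. In WT, where 0.0298% of all rows passed, none is.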

How the data were processed

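Affymetrix gene arrays read 18 epidermal samples, each from 100 ng total RNA, per the labels' protocols. The authors deposited 1 table of values, taken to be log2, with each row centred on its median. The normalisation and the software were not given in the sources used here. The log base was not stated either and was assumed to be 2, so the fold changes rest on that assumption. A natural log would enlarge every difference by the same factor. Centring prevented any filter on dim rows. The number of arrays limits the precision.

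Groups and replicate numbers came from the sample titles. The platform's annotation gave 23521 rows 1 symbol, 1814 several and 8458 none. limma 3.58.1 in R 4.3.3 fitted 6 group means over 18 arrays, 12 contrasts were tested, with Benjamini-Hochberg adjustment of 2-sided p-values over the 23521 rows (threshold 0.05). The pipeline was tested on simulated data. For a gene with several rows, the row of largest SD was used. With 3 arrays against 3, an exact permutation test cannot go below p = 0.1, so none is given. Named genes were all members, the 5 genes most like the member of largest SD, and list genes that passed. The members and lists were chosen with earlier results of these data known. The 0 columns of other samples needed no handling.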

Additional observations from a re-analysis of the deposited data

Results flagged for a closer look

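For Gsta4 the test of the difference between genotypes in the 6 h response to stripping passed narrowly. It gave 3.52 (SE 0.746, limma adjusted p = 0.047), from a change of 3.01 in KO and a difference of -0.51 in WT, which did not pass. All 3 KO arrays at 6 h lay above all 3 KO arrays at 0 h, and the WT arrays of the 2 times overlapped. The call was kept in 6 of 22 alternatives and lost in 16, 9 of them omissions of a single array, with estimates of 3.07 to 4.03 throughout. The 24 h difference of responses had a similar size, 3.32, and did not pass (adjusted p = 0.225).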

How the results depend on the processing

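Gsta4 at 24 h in KO passed in all 15 alternatives tried (log2 difference 2.87, under a further quantile normalisation, to 4.33), as did Mgst2 (0.59 to 0.75). Over both genotypes at 24 h, both passed in all 21 (Gsta4 1.79 to 2.58, Mgst2 0.49 to 0.59). For KO against WT at 6 h, 0 members passed with only the compared groups fitted, where 0 rows passed. Within label numbers from 3000 up, with 1 array a genotype at 6 h, Gsta4 differed by 3.0. Within numbers below 3000, 3 members passed (Gsta4, Gsto1 and Mgst1, where 1660 of 23521 rows passed, against 513 over all arrays). The omissions of a single array gave 0 to 1. For KO at 6 h against 0 h, 2 members (Gsta4 and Gsto1) passed with array weights and with only the compared groups. In these settings 1856 and 661 rows passed, against 1172 over all arrays. Within numbers from 3000 up, with 1 array at 6 h, Gsta4 differed by 3.99, and below 3000, with 1 array at 0 h, by 2.41. For the genotypes' difference in the 6 h response, 0 passed with all rows tested (Gsta4 adjusted p = 0.0633), the robust option (0.0521), only the compared groups (0.0507) and the label number as a block (0.0514). In these settings 72 to 145 rows passed, against 172 in the main fit. Within numbers from 3000 up the Gsta4 difference was 3.36. Omissions gave 0 to 1 member. Within numbers below 3000, with 1 KO array at 0 h and 198 rows passing, the 1 member that passed was Gsto1, and Gsta4 did not (0.0521). Averaged KO against WT had 0 to 1 over omissions. Within numbers from 3000 up, 1 member passed at 6 h over both genotypes (Gsto1), where both 6 h groups and WT at 0 h hold 1 array each and 1785 rows passed against 0 over all arrays. At 24 h 4 passed (Gsta4, Gsto1, Mgst2 and Mgst3), where 3495 rows passed against 2545. Fits with a lone array take its spread from the other groups. No estimate named here changed sign, and the cause of these changes was not tested. Arrays of equal replicate number were not more alike than others: the correlation of deviations over 45 same-number pairs had a median of -0.0241 and exceeded 0.1 in 9. Over 90 different-number pairs the median was 0.011, and 19 exceeded 0.1. Litter was not part of any fit. The replicate block left 0 members in the genotypes' difference in the 6 h response (Gsta4 adjusted p = 0.0566) and moved no other count of members. A filter on dim rows was not run, since the row level was removed before deposit, and signal over background is unknown.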

Other observations

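Among 9 measured AhR target enzymes and regulators (of 11 listed), Cyp1b1, a xenobiotic-metabolising cytochrome, fell by 0.74 in KO at 6 h (limma adjusted p = 0.02), and Aldh3a1, an aldehyde dehydrogenase, rose by 0.80 in KO at 24 h (adjusted p = 0.00645). Nfe2l2, which encodes NRF2, was lower in KO averaged over the 3 times (-0.25, adjusted p = 0.0428). Over both genotypes at 24 h Tiparp, an AhR-induced repressor of AhR, fell by 0.63 (adjusted p = 0.0259). In KO against WT, 3 of the 9 genes were above 0 at 0 h (median -0.17), as were 48.5% of all rows. At 6 h, at 24 h and averaged over the 3 times, 1 of 9 was above 0, as were 52.5%, 49.7% and 50.2% of all rows. Those medians were -0.13, -0.15 and -0.24, beside 0.007, -0.0006 and 0.0003 for all rows. Averaged, 5 of 9 had an unadjusted p under 0.05 in limma, as had 12.3% of all rows. At the single times 3 of 9 (0 h), 2 (6 h) and 0 (24 h) had one, beside 8.48%, 15.8% and 6.71% of all rows.

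Among 21 measured NRF2 targets outside the glutathione lists (of 25), 3 rose and 1 fell in KO at 24 h, where 3.09% of all rows passed as higher and 9.56% in either direction. At 6 h in KO 0 rose and 2 fell, Ephx1 by 0.48 (limma adjusted p = 0.0406) and Me1 by 0.47 (adjusted p = 0.0458), beside 4.98% of all rows in either direction. At 24 h Akr1b8, an aldo-keto reductase (1.05, adjusted p = 0.0393), Cbr1, a carbonyl reductase (0.49, adjusted p = 0.0399), and Taldo1 of the pentose phosphate pathway (0.43, adjusted p = 0.0442) rose, and Me1, the malic enzyme, fell by 0.50 (adjusted p = 0.0242). Ephx1, the microsomal epoxide hydrolase, was lower in KO than WT at 6 h (-0.55, adjusted p = 0.0378). In WT at 24 h 0 genes of the 2 lists passed in limma (3 in each at an unadjusted p under 0.05), with list medians of 0.03 and 0.08. Of all rows 0.0298% passed in that comparison and 12.5% had an unadjusted p under 0.05.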
